A study of Mus musculus with 6 samples.

Results

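Ribosome biogenesis and RNA polymerase I were followed through 56 genes, chosen by symbol from the 17144 genes in the deposited count tables. Earlier results of these data were known when the genes were chosen. All 56 were listed and passed the filter on low counts. The data are RNA-seq of messenger RNA from SaOS2 cells as labelled, a line established from a human osteosarcoma, in 2 groups of 3 libraries that their titles name C and D. The series title names the compound DDTC(I), but the labels give no dose or time and do not explain the letters, so no group is called treated and a positive difference means a higher value in D. They also do not state that replicates were separate cultures, and p-values then cover only library-to-library spread, which may be technical.

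Ribosomes begin in the nucleolus, where RNA polymerase I (Pol I) transcribes the long precursor of most ribosomal RNA. Small nucleolar ribonucleoproteins then modify that precursor: box C/D particles guide methylation of riboses and H/ACA particles guide pseudouridine formation. Separate sets of assembly factors fold, cut and export the small and the large subunit. The members were sorted by these roles into 8 Pol I genes, 4 box C/D proteins, 4 H/ACA proteins, 6 abundant nucleolar proteins with several roles, 22 small subunit factors and 12 large subunit factors.

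Library totals lay between 18446443 and 20602771 counts, and the members had between 191 and 24715 counts per library, so counting error weighed most in the members with the fewest counts. The D libraries varied more than the C libraries, with a biological coefficient of variation (spread beyond counting noise) of 0.189 in D and 0.0752 in C over all tested genes. D replicates 2 and 3 stood furthest apart. The bone phosphatase gene ALPL, known to be high in SaOS2 cells, had 8 to 15 counts per library. This goes against the label, so the cells are named here only by that label. The files use human symbols although the labels name the mouse, and no coordinates are given.

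Most of the 56 ribosome biogenesis genes were called higher in D, and none of the 56 was called lower. Of the 56 members, 36 rose in D and 0 fell (adjusted p under 0.05 in the edgeR quasi-likelihood test, Benjamini-Hochberg over all 12682 tested genes), and 20 were not called. For comparison, the test called 26.8% of the 12682 genes higher and 27.7% lower. The median log2 fold change was 0.52 for the members and −0.02 for all tested genes. At least a 2-fold rise was found for 12 members, against 8.37% of all tested genes. With scaling by library size only, 30 members rose and 0 fell, while all genes split into 2586 higher (20.4%) and 4449 lower (35.1%) in place of 3393 and 3509. That scaling moved the median of all genes to −0.17 and the members' median to 0.36. The distance between the medians was 0.54 under both scalings, because new scaling factors shift all genes by nearly the same amount. It is therefore no check on the scaling. Over the 20 alternatives tried the distance lay between 0.36 and 0.60. Of the 36 members that rose, 30 were called higher under each of the 20 alternatives tried. The other 6 were POLR1E, NPM1, UTP6, RRP7A, WDR75 and RRP8.

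**Figure D1:**
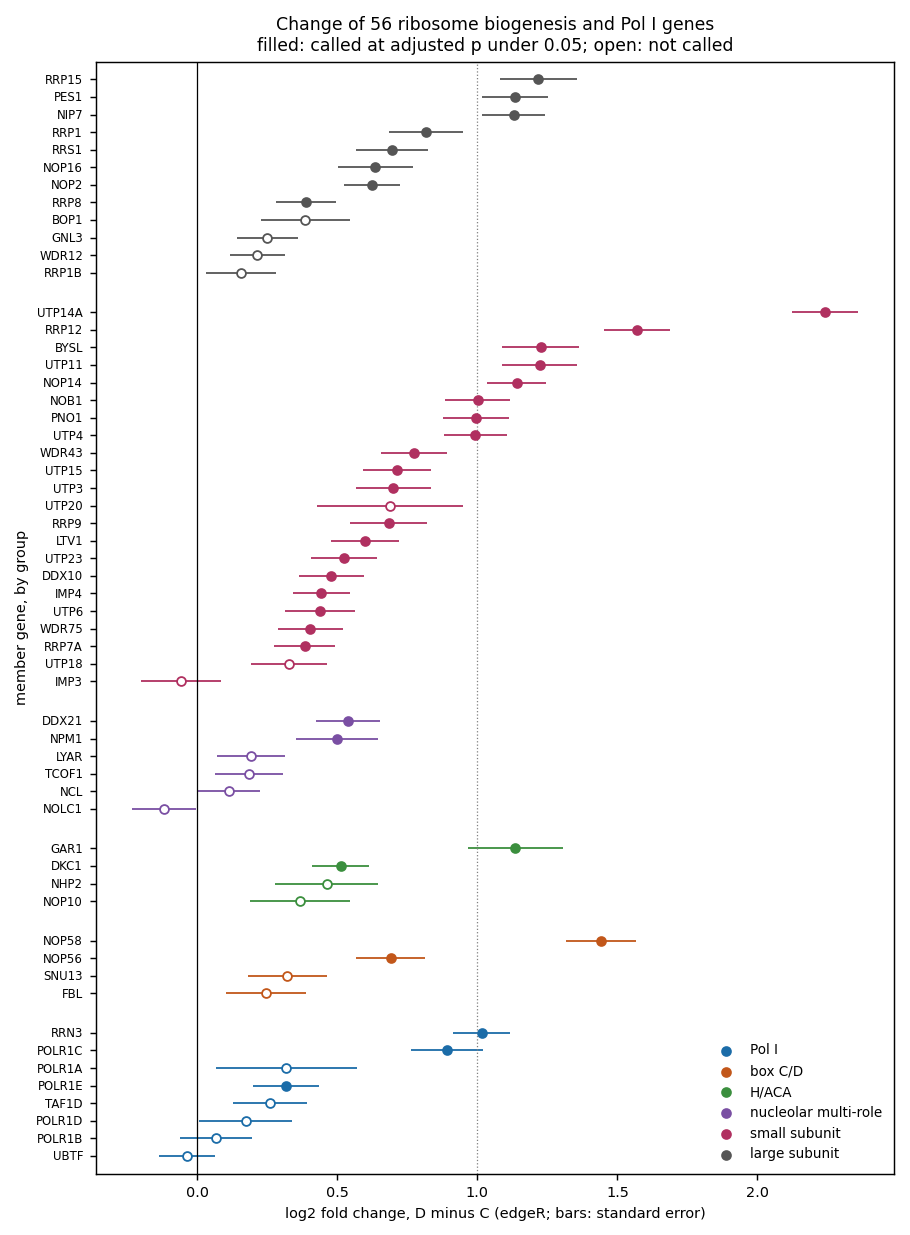
Log2 fold change of each member (horizontal axis, D minus C, with standard error) by group, with filled points for genes called at an adjusted p under 0.05 and open points for the rest; the dotted line marks a 2-fold rise. UTP14A lies furthest right at 2.24, and 3 members, NOLC1, IMP3 and UBTF, have values below 0 without passing the test.

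In 39 of the 56 members all 3 D libraries lay above all 3 C libraries, in 0 they lay below, and in 17 the groups overlapped. Over all tested genes these arrangements were found in 30.6% (above) and 32.1% (below). Together the members held 0.577% to 0.641% of all counts in the C libraries and 0.784% to 0.847% in the D libraries. As the mean over members of log2 CPM (counts scaled by normalized library size), D replicates 1, 2 and 3 lay 0.58, 0.54 and 0.70 above the C mean, while the C libraries lay between −0.10 and 0.06 around it.

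**Figure D2:**
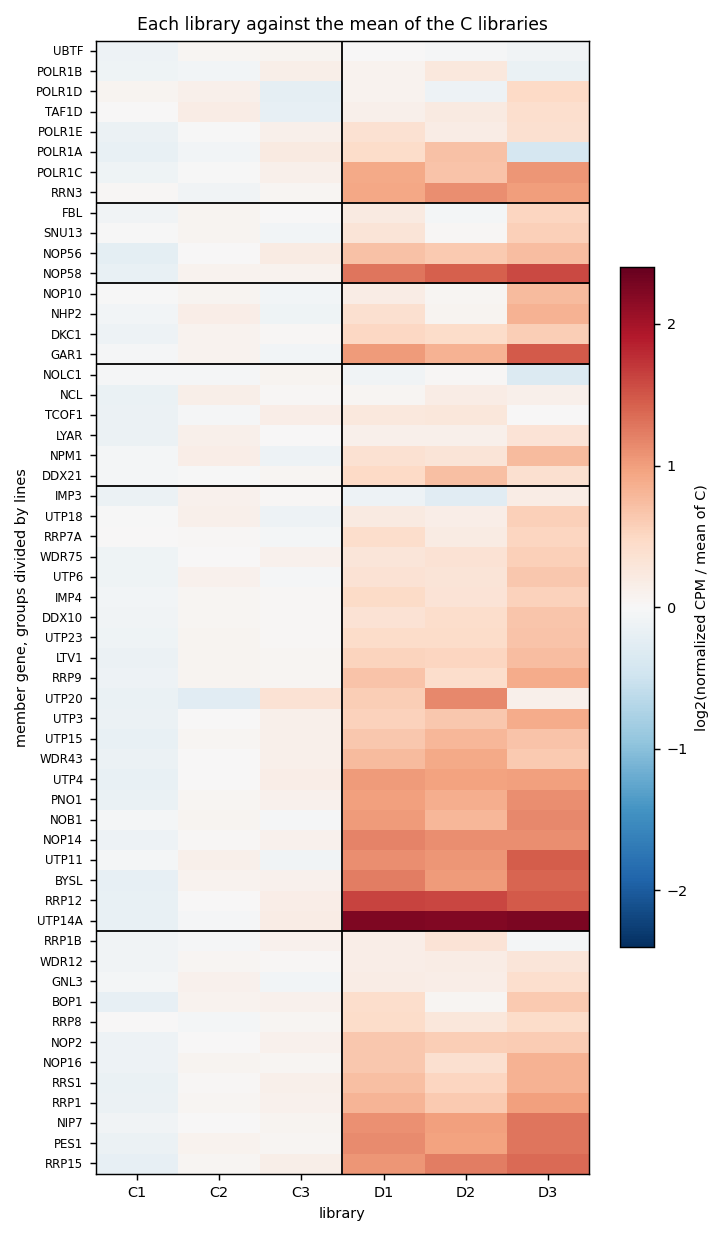
Heat map of log2 normalized CPM in each of the 6 libraries (columns) relative to the mean of the C libraries, for the 56 members (rows) with black lines between groups. The D columns are red for most rows, deepest for UTP14A, and D2 and D3 lie furthest apart in rows such as POLR1A, UTP20, NOP10 and NHP2.

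By role, the genes called higher in D were 3 of 8 Pol I genes, 2 of 4 box C/D genes, 2 of 4 H/ACA genes, 2 of 6 multi-role nucleolar genes, 19 of 22 small subunit factors and 8 of 12 large subunit factors, and none of these groups had a member called lower. Beside the 26.8% of all tested genes called higher, the shares of 37.5% for Pol I and 33.3% for the multi-role proteins lay near the background. Those of 86.4% for the small and 66.7% for the large subunit factors lay further above it. The box C/D and H/ACA shares were 50% each, but 4 genes are too few to set apart from the background. The median log2 fold changes were 0.29, 0.51, 0.49, 0.19, 0.69 and 0.63 in the same order. Differences between the groups of genes were not tested.

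Within the Pol I machinery, the initiation factor gene RRN3 and the subunit gene POLR1C rose by the most, while the genes of the largest subunits and of the factor UBTF were not called. RRN3 links the polymerase to the promoter of the ribosomal RNA genes, and its activity is known to follow growth signals. It had 53.7, 50.0 and 55.0 normalized CPM in C replicates 1, 2 and 3 and 100.4, 114 and 106 in D. The D libraries were all close to double the C libraries, with a log2 fold change of 1.02 ± 0.10 (SE; adjusted p = 9.4e-05, edgeR).

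POLR1C encodes a subunit that Pol I shares with RNA polymerase III, where it pairs with the product of POLR1D. POLR1C had 32.8, 34.9 and 38.3 CPM in C and 66.0, 56.7 and 74.1 in D, a log2 fold change of 0.89 ± 0.13 (adjusted p = 0.00057, edgeR). POLR1D had 79.7, 82.1 and 65.5 CPM in C and 80.6, 69.4 and 106 in D, where the groups overlapped (0.17 ± 0.17, adjusted p = 0.41). The partners therefore differed in relative level within each library: POLR1C per POLR1D, both per length, was 0.699 ± 0.142 in C and 1.15 ± 0.102 in D (SD, n = 3), and the groups did not overlap. Such ratios do not depend on how libraries are scaled. They can still carry a library's trend along gene length where the 2 genes differ in length. POLR1C (2455 bp) per POLR1A (12480 bp) was 1.93 in D replicate 2 and 5.46 in D replicate 3. The 11 pairs computed were chosen after the values had been seen and are given without a test. The groups overlapped in 2 of the 11: POLR1C per POLR1A, at 1.98 ± 0.136 in C and 3.37 ± 1.85 in D, and NOP14 per NOB1, at 0.173 ± 0.0145 and 0.192 ± 0.0242.

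POLR1A and POLR1B encode the catalytic subunits. POLR1A had 80.3, 87.2 and 107 CPM in C and 123, 149 and 69.0 in D. D replicate 3 lay below every C library and the other D libraries above them, and with a log2 fold change of 0.32 ± 0.25 it was not called (adjusted p = 0.31). Its value rested on single D libraries in both directions: without D replicate 3 it was 0.59 and was called, and without D replicate 2 it was 0.11 (adjusted p = 0.70, edgeR). POLR1B had 82.7, 84.7 and 97.3 CPM in C and 92.9, 105 and 79.4 in D, also with the lowest D value in replicate 3 (0.06 ± 0.13, adjusted p = 0.69). With the trend of each library along gene length removed, both were called higher, by 0.55 for POLR1A and 0.27 for POLR1B.

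UBTF encodes the protein that coats active ribosomal RNA genes. Its values of 83.0, 93.6 and 94.3 CPM in C and 90.9, 88.5 and 84.8 in D overlapped, with a log2 fold change of −0.04 ± 0.10 (adjusted p = 0.78, edgeR). RRN3 per UBTF, both per length, was 0.824 ± 0.0787 in C and 1.70 ± 0.136 in D. TAF1D, a subunit of the promoter selectivity factor SL1, had 41.9, 46.9 and 36.2 CPM in C and 45.5, 48.6 and 55.4 in D, which overlapped (0.26 ± 0.13, adjusted p = 0.13). The subunit gene POLR1E rose from 33.5, 36.6 and 40.02 to 47.4, 41.7 and 48.1 CPM (0.32 ± 0.12, adjusted p = 0.046). Its call was lost in 13 of the 20 alternatives, including without C replicate 1, 2 or 3 and without D replicate 1.

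**Figure D3:**
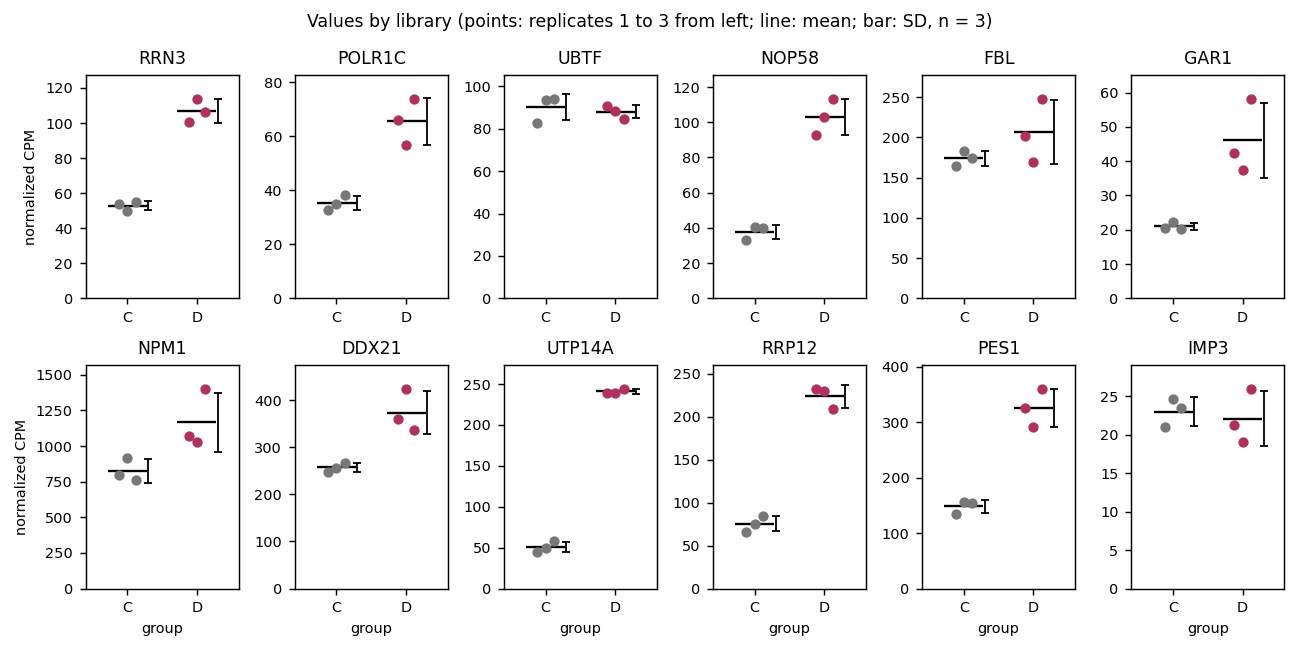
Normalized CPM (vertical axis, from 0) of 12 members in C (grey) and D (red), with points for replicates 1 to 3 from left to right, a line at the mean and a bar for the SD (n = 3). UTP14A, RRP12 and NOP58 have every D library far above every C library, while UBTF, FBL and IMP3 overlap.

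Of the box C/D proteins, the scaffold genes NOP58 and NOP56 rose, and the methyltransferase gene FBL and SNU13 were not called. NOP58 had 33.3, 40.4 and 40.1 CPM in C and 92.8, 103 and 114 in D (1.44 ± 0.13, adjusted p = 5.1e-05, edgeR), and its lowest D value was more than 2 times its highest C value. NOP56, which sits opposite NOP58 in the particle, rose from 87.8, 105 and 118 to 168, 160.5 and 173 CPM (0.69 ± 0.12, adjusted p = 0.0018). NOP56 per NOP58, both per length, went from 2.84 ± 0.204 in C to 1.70 ± 0.163 in D, without overlap.

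FBL, or fibrillarin, had 165, 183 and 174 CPM in C and 202, 169.5 and 248 in D (0.25 ± 0.14, adjusted p = 0.18). SNU13, which binds the guide RNA and is also a part of the spliceosome, had 227, 237 and 219 CPM in C and 281, 232 and 340.3 in D (0.32 ± 0.14, adjusted p = 0.084). In both, D replicate 2 lay among the C libraries and replicates 1 and 3 above them. Without D replicate 3 the values dropped to 0.11 for FBL and 0.19 for SNU13, and the group kept its count of 2 of 4. With length trends removed FBL was at 0.03 and not called, while SNU13 was called at 0.27. Without D replicate 2 both were called higher, FBL by 0.40 and SNU13 by 0.48, and the count for the group was 4 of 4, in a fit that called 30.4% of all tested genes higher and 30.3% lower.

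The H/ACA genes had a like division. GAR1 rose from 20.6, 22.2 and 20.1 to 42.4, 37.6 and 58.3 CPM (1.13 ± 0.17, adjusted p = 0.00067, edgeR). DKC1, the pseudouridine synthase dyskerin, rose from 172, 197 and 192 to 264, 254 and 283 CPM (0.51 ± 0.10, adjusted p = 0.0030). All D libraries lay above all C libraries in both genes, and the rise of GAR1 was the larger: DKC1 per GAR1, per length, was 3.83 ± 0.258 in C and 2.55 ± 0.423 in D.

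NHP2 and NOP10 complete the H/ACA core, which is also part of telomerase. NHP2 had 87.7, 102 and 85.0 CPM in C and 120.0, 96.1 and 162 in D (0.46 ± 0.18, adjusted p = 0.061). NOP10 had 292, 308 and 281 CPM in C and 334, 303 and 499 in D (0.37 ± 0.18, adjusted p = 0.11). As for FBL and SNU13, D replicate 2 lay within the range of C and replicate 3 was the highest. Without D replicate 2 both were called, by 0.66 for NHP2, which DESeq2 also called, and 0.54 for NOP10, again giving 4 of 4 for the group. Without D replicate 3 the values were 0.25 for NHP2 and 0.13 for NOP10, neither was called, and the count was 2 of 4. With length trends removed the values were 0.17 for NHP2 and 0.0008 for NOP10, and neither was called.

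Among abundant nucleolar proteins with several roles, NPM1 and DDX21 rose and the others were not called. NPM1, or nucleophosmin, a nucleolar chaperone, rose from 796, 919 and 761 to 1069, 1027 and 1403 CPM (0.50 ± 0.15, adjusted p = 0.019, edgeR). It has many processed pseudogenes that can share its reads, and its call was lost with library size only (0.34) and without C replicate 1 (0.47) or C replicate 3 (0.44), where DDX21 was the only called gene of the group. DDX21, a helicase that acts in Pol I transcription and in RNA processing, rose from 248, 256 and 267 to 359, 424 and 336 CPM (0.54 ± 0.11, adjusted p = 0.0042).

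NCL, or nucleolin, had 436, 537 and 497 CPM in C and 506, 554 and 529.9 in D (0.11 ± 0.11, adjusted p = 0.41). NOLC1, a chaperone of small nucleolar particles, had 136, 136 and 145 CPM in C and 131, 142 and 111 in D, with the lowest log2 fold change of all members (−0.12 ± 0.11, adjusted p = 0.40). These groups overlapped, as did those of LYAR (0.19 ± 0.12) and of TCOF1 (0.18 ± 0.12), the gene of treacle, a scaffold for Pol I. TCOF1 was called with length trends removed (0.32) and without D replicate 3 (0.27), and its value was 0.11 without C replicate 1.

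Small subunit factors held the largest rises. The processome, a large particle on the early precursor, is built from the UTP proteins, NOP14, the IMP proteins and others. Its component UTP14A, known to activate a helicase within the particle, had 45.1, 49.8 and 57.8 CPM in C and 239.6, 239 and 244 in D. The D libraries differed from each other by less than the C libraries did, and the log2 fold change was 2.24 ± 0.12 (adjusted p = 6.6e-06, edgeR). UTP14A has a near-identical retrogene, UTP14C, so reads of the copies may have been shared between them. UTP14C is not among the listed genes, so no value of it could be compared. On the FPKM scale (counts per length and per library total), UTP14A went from 19.5 ± 2.52 in C to 82.9 ± 1.61 in D, from rank 33 to rank 12 of the 56 members.

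RRP12, a repeat protein that serves late maturation and export, rose from 66.3, 75.6 and 84.4 to 233, 230.5 and 209 CPM (1.57 ± 0.12, adjusted p = 2.6e-05, edgeR). BYSL, or bystin, rose from 33.4, 40.6 and 41.5 to 89.7, 78.7 and 102 CPM (1.23 ± 0.14, adjusted p = 0.00015). UTP11 rose from 54.7, 61.8 and 53.2 to 123, 117 and 155 CPM (1.22 ± 0.13, adjusted p = 0.00014). NOP14, a core processome protein, rose from 35.6, 39.5 and 41.6 to 89.0, 84.2 and 84.0 CPM (1.14 ± 0.10, adjusted p = 6.5e-05). UTP14A, RRP12, NOP14 and NOP58 were the 4 members whose lowest D value exceeded 2 times the highest C value.

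Of the late factors of the small subunit, NOB1, PNO1 and LTV1 rose by less than RRP12. NOB1, the nuclease of the final cut of small subunit RNA, had 106, 114 and 106 CPM in C and 221, 189 and 243 in D (1.001 ± 0.12, adjusted p = 0.00019, edgeR). Its binding partner PNO1 had 34.8, 40.4 and 42.1 CPM in C and 76.9, 71.9 and 84.8 in D (0.99 ± 0.12), and LTV1, which leaves the particle late, rose by 0.60 ± 0.12. All 3 had every D library above every C library.

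The processome subcomplex that is linked to transcription of the precursor includes UTP4, UTP15, WDR43 and WDR75, and all 4 rose, by 0.99 ± 0.11, 0.71 ± 0.12, 0.77 ± 0.12 and 0.40 ± 0.12. UTP4 had the highest level of them per length, 70.0 ± 8.21 FPKM in C and 125 ± 5.12 in D, and UTP15 the lowest, 3.19 ± 0.339 and 4.71 ± 0.364. UTP3 rose by 0.70 ± 0.13, the box C/D particle protein RRP9 by 0.68 ± 0.14, UTP23 by 0.52 ± 0.12, the helicase gene DDX10 by 0.48 ± 0.12, UTP6 by 0.44 ± 0.12 and RRP7A by 0.38 ± 0.11. The calls of RRP7A, UTP6 and WDR75 were the ones of this group lost in some alternatives. They were lost with library size only and without C replicate 1, that of RRP7A also without C replicates 2 and 3 and D replicate 1, that of UTP6 without C replicate 3 and that of WDR75 without C replicate 2. RRP7A has a near copy, RRP7BP, that can share its reads and is not among the listed genes.

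Of the IMP pair, which bind the precursor together with MPHOSPH10, only IMP4 was called. IMP4 rose from 103, 112 and 109.9 to 148, 135 and 158 CPM (0.44 ± 0.10, adjusted p = 0.0060, edgeR). IMP3 had 20.9, 24.6 and 23.5 CPM in C and 21.3, 19.1 and 26.0 in D (−0.06 ± 0.14, adjusted p = 0.74), and was called lower with length trends removed (−0.27). The level of IMP4 per IMP3, both per length, was 1.64 ± 0.0663 in C and 2.34 ± 0.192 in D, without overlap.

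UTP18 and UTP20 were the remaining factors that were not called. UTP18 had all D libraries above all C libraries, 78.9, 85.7 and 72.9 against 91.9, 88.1 and 118 CPM (0.33 ± 0.13, adjusted p = 0.069), and was called without D replicate 2 (0.44), while without D replicate 3 the value was 0.20. UTP20, one of the longest members, had 44.4, 41.3 and 63.3 CPM in C and 74.8, 111 and 54.4 in D (0.69 ± 0.26, adjusted p = 0.051), with D replicate 3 inside the range of C. It was called without D replicate 3 (0.91), without C replicate 3 (0.90), with length trends removed (0.89), with RLE or upper quartile factors, without a filter on low counts and in DESeq2. Without D replicate 2, its highest D library, the value dropped to 0.41 (adjusted p = 0.11, edgeR).

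Of the large subunit factors, RRP15, PES1 and NIP7 rose at least 2-fold. RRP15, an early factor, rose from 9.78, 11.5 and 12.3 to 23.2, 26.1 and 28.8 CPM (1.22 ± 0.14, adjusted p = 0.00016, edgeR). It had the lowest level per length of all members in C, 1.43 ± 0.165 FPKM. NIP7, which acts in late processing, rose from 70.5, 75.4 and 78.6 to 160.3, 148 and 183 CPM (1.13 ± 0.11, adjusted p = 9.2e-05).

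PES1, BOP1 and WDR12 form the PeBoW complex, in which BOP1 holds the other proteins together. PES1 rose from 134, 156 and 154 to 326, 291 and 360.4 CPM (1.14 ± 0.12, adjusted p = 0.00011, edgeR). BOP1 had 169.9, 208 and 209 CPM in C and 261, 203 and 302 in D (0.39 ± 0.16, adjusted p = 0.067), and WDR12 had 61.5, 66.8 and 66.4 in C and 72.6, 73.6 and 79.6 in D (0.21 ± 0.10, adjusted p = 0.095). The ratios within each library, per length, shifted without overlap: PES1 per BOP1 from 0.360 ± 0.0133 in C to 0.611 ± 0.0604 in D, and PES1 per WDR12 from 3.59 ± 0.135 to 6.80 ± 0.502. Both were called with length trends removed (BOP1 0.31, WDR12 0.44) and without D replicate 2 (BOP1 0.56, WDR12 0.26), and neither was called without D replicate 3 (BOP1 0.26, WDR12 0.18).

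The remaining large subunit genes moved by less than RRP15, PES1 and NIP7. RRP1 rose by 0.82 ± 0.13, RRS1, which helps to bring in the smaller ribosomal RNA of the subunit, by 0.69 ± 0.13, NOP16 by 0.64 ± 0.13, the RNA methyltransferase gene NOP2 by 0.62 ± 0.10, and RRP8, a methyltransferase of an RNA base, by 0.39 ± 0.11. The call of RRP8 was lost with library size only (0.23) and without C replicate 1, C replicate 2 or D replicate 1. RRP1B, the paralog of RRP1, had 44.3, 46.2 and 50.7 CPM in C and 52.5, 59.0 and 45.7 in D (0.16 ± 0.12, adjusted p = 0.31, edgeR). It was called with length trends removed (0.24). GNL3, the GTPase nucleostemin, had all D libraries above all C libraries, 151, 167 and 148 against 175, 174 and 204 CPM, without passing the test (0.25 ± 0.11, adjusted p = 0.082), and was called without D replicate 2 (0.32) but not without D replicate 3 (0.18).

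Levels per length spanned a wide range among proteins that work in the same pathway. The highest was NOP10, with 611 ± 26.3 FPKM in C and 705 ± 172 in D, followed by NPM1 with 401 ± 39.1 and 508 ± 72.5. FBL, NCL and NHP2 came next in C, between 124 ± 11.98 and 165 ± 8.45 FPKM, and NCL and NHP2 did not differ beyond their spread. The top 3 places were the same in D. The 5 most abundant members in C included 1 whose difference was called, NPM1, and over all 56 members the Spearman correlation between level in C and log2 fold change was −0.16, a description over genes that share the same 6 libraries.

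Gene length moved with differences between the D libraries. Over the 56 members, the difference of D replicate 3 minus D replicate 2 in log2 normalized CPM had a Spearman correlation of −0.65 with gene length, across genes that share both libraries. All 16 members under 2000 bp were higher in D replicate 3, with a median difference of 0.37, and 5 of the 12 members over 5000 bp were, with a median of −0.09. Among short genes NHP2 differed by 0.76 and NOP10 by 0.72, and among long genes POLR1A by −1.11 and UTP20 by −1.03. Over all tested genes the slope of each library's deviation from its group mean on log2 length was 0.17 in D replicate 2 and −0.18 in D replicate 3. What caused this difference was not tested. The log2 fold change of D minus C had a Spearman correlation with length of −0.18 over all tested genes and −0.15 over the members. The median length was 4081.5 bp for all tested genes and 2890.5 bp for the members. With length trends removed, 44 members rose and 1, IMP3, fell, against 32.9% and 30.4% of all tested genes, and the median was 0.52 as before. The group medians then were 0.24 for Pol I, 0.43 for box C/D, 0.31 for H/ACA and 0.24 for multi-role genes. They were 0.70 for small and 0.59 for large subunit factors. Of the 36 members that rose, 35 also rose under that treatment.

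**Figure D4:**
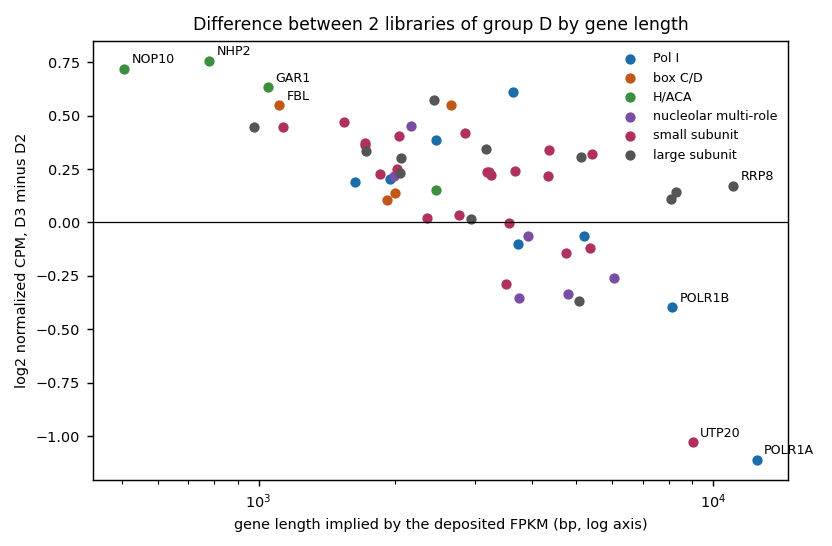
Difference of D replicate 3 minus D replicate 2 in log2 normalized CPM (vertical axis) against gene length in bp (horizontal log axis) for the 56 members, coloured by group. The 16 members under 2000 bp all lie above 0, while POLR1A and UTP20 lie below −1.

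Other genes of the pathway, listed by role, also included many that rose. Of 162 further genes, 159 were tested, and 95 rose and 6 fell, with a median log2 fold change of 0.43, beside the 26.8% and 27.7% of all tested genes. Called higher were 27 of 35 further small subunit factors (0 lower), 38 of 56 further large subunit factors (1 lower), 5 of 10 factors of small nucleolar particle assembly (0 lower), 4 of 13 further Pol I and promoter factor genes (0 lower), 12 of 24 exosome and RNase MRP genes (2 lower) and 9 of 21 RNA polymerase III genes (3 lower). The medians were 0.60, 0.59, 0.35, 0.27, 0.37 and 0.28 in that order. The share of 30.8% called higher among the further Pol I and promoter factor genes lay near that of all tested genes.

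**Figure D5:**
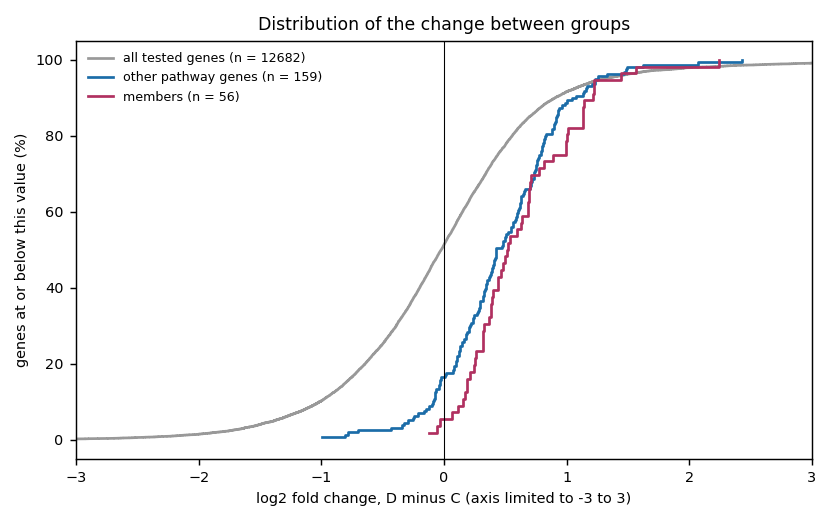
Cumulative share of genes (vertical axis, %) at or below each log2 fold change (horizontal axis, D minus C, limited to the range from −3 to 3) for all tested genes, the other pathway genes and the 56 members. The curve of the members, with a median of 0.52, and that of the other pathway genes, with 0.43, lie to the right of the curve of all tested genes, with −0.02.

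Among the further subunit factors, the largest rises were in WDR74 (1.62 ± 0.16), RSL24D1 (1.49 ± 0.17) and PPAN (1.46 ± 0.16) for the large subunit and in NGDN (1.204 ± 0.15), NOL11 (0.99 ± 0.13) and the methyltransferase gene EMG1 (0.92 ± 0.11) for the small subunit. RSL24D1 went from 117, 127 and 107 CPM in C to 287, 278 and 422 in D. URB1, the 1 large subunit factor called lower, fell from 93.8, 95.8 and 117 to 70.3, 76.8 and 41.9 CPM (−0.70 ± 0.21, adjusted p = 0.022, edgeR). Its D values were all below its C values, with replicate 3 the lowest, and the call was lost without C replicate 3 (−0.59).

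For particle assembly, ZNHIT6, a box C/D assembly factor, rose by 0.63 ± 0.13, ZNHIT3 by 0.43 ± 0.15 and NOPCHAP1 by 0.39 ± 0.14. The calls of ZNHIT3 and NOPCHAP1 held without D replicate 2 and were lost without any other single library. Of the further Pol I and promoter genes, the largest rises were in TAF1A (0.81 ± 0.14), POLR1H (0.76 ± 0.19) and TBP (0.74 ± 0.12). TAF1A and TBP encode subunits of SL1, as TAF1D does, and TBP serves all 3 nuclear RNA polymerases.

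In the exosome, the complex that trims RNA ends, the ring subunit gene EXOSC6 rose from 22.5, 23.4 and 19.2 to 116, 111 and 125 CPM (2.43 ± 0.12, adjusted p = 5.2e-06, edgeR), more than any member. EXOSC5 rose by 0.93 ± 0.14, while the catalytic subunit gene DIS3 fell from 84.6, 80.1 and 79.3 to 57.1, 74.1 and 61.0 CPM (−0.34 ± 0.12, adjusted p = 0.039). The call of DIS3 was lost with length trends removed (−0.09), without D replicate 1 and without C replicate 1, 2 or 3. Subunit genes of RNase MRP and RNase P went opposite ways: RPP40 rose by 1.14 ± 0.15 and POP5 fell by 0.78 on the log2 scale, with an SE of 0.17.

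RNA polymerase III genes went both ways within a single subcomplex. POLR3C and POLR3F rose by 1.48 ± 0.11 and 1.23 ± 0.14. POLR3G and POLR3GL, which encode alternative forms of the subunit that joins them, fell: POLR3G from 30.1, 32.0 and 29.6 to 15.2, 18.9 and 18.3 CPM (−0.81 ± 0.12), and POLR3GL from 21.3, 19.8 and 18.3 to 9.76, 7.44 and 12.7 CPM (−0.99 ± 0.19). The adjusted p-values (edgeR) were 0.00075 and 0.0022, and all D libraries lay below all C libraries in both. BRF2, an initiation factor for a subset of these promoters, rose from 17.7, 17.2 and 14.6 to 72.6, 60.0 and 75.3 CPM (2.07 ± 0.14), and GTF3C2, a promoter-binding factor, fell by 0.43 on the log2 scale (SE 0.12), a call lost without C replicate 3 (−0.42).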

How the data were processed

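Per the labels' protocols, total RNA from a spin-column kit went into SMARTER mRNA libraries. GRCm38 and mm10, builds of the mouse, stand in the submitters' processing notes. How reads were aligned and counted, and with which strand setting, is not given in the sources used here. The authors deposited raw counts per gene symbol and FPKM for every library. In 17144 of 17144 genes the deposited FPKM could be rebuilt from the count, the library total and a single gene length (relative tolerance 0.001), and those lengths were used.

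The main test was run on the counts of all genes with edgeR 4.0.16 under R 4.3.3 (filterByExpr, TMM factors, quasi-likelihood F test, 2-sided, group as the only term), which kept 12682 genes. The standard error was the log2 fold change divided by the square root of F. Replicates differed by more than sampling noise. The test was tried on simulated counts, with the same spread in both groups, between those of C and D. Genes were simulated independently of each other, with 100 changed genes for each size of change. In that setting the test recovered 98% of log2 changes of 1 and 58% of log2 changes of 0.5, and 5.45% of its calls were false. The real libraries differed in spread and along gene length, so these shares need not hold for them. A gene that was not called may therefore still differ. The members and lists were chosen with earlier results of these data known. All members could be named, and from each further list the 3 called genes with the largest change in each direction. AFG2A and AFG2B were found under older symbols. The alternatives were DESeq2 1.42.0, limma-voom (limma 3.58.1), RLE factors, library size only, upper quartile factors, no filter, 1 CPM in 3 libraries, a threshold of 0.01, replicate numbers as blocks, each library left out, the 20 most abundant genes left out, length trends removed by a lowess curve (span 0.4) of each library's deviation from the gene's mean log2 CPM, and limma-trend on log2(FPKM + 1), with FPKM above 1 in 3 libraries or unfiltered, or on log2(FPKM + 0.1).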

Additional observations from a re-analysis of the deposited data

How the results depend on the processing

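In none of the 20 alternatives was a member called in the direction opposite to its value in the main test. With each library left out, between 30 and 44 members rose and 0 fell, against 36 and 0 with all libraries. In the same settings 2 to 4 box C/D genes, 2 to 4 H/ACA genes and 1 to 3 multi-role nucleolar genes rose (2 in each group with all libraries), and 3 to 11 other pathway genes fell (6 with all). With length trends removed 1 member, a small subunit factor, fell. In the multi-role group 1 gene rose with library size only, at an adjusted p under 0.01, with the replicate number as a block and in each of the 3 fits of FPKM. Other pathway genes called lower numbered 3 at an adjusted p under 0.01, 10 with log2(FPKM + 1), 10 with log2(FPKM + 0.1) and 11 with log2(FPKM + 1) unfiltered. Over all genes 2213 and 2209 were called higher and 3908 and 3877 lower in the filtered FPKM fits, against 3393 and 3509 from counts. The cause of these changes was not tested. The FPKM values are scaled by library total only. With the replicate number as a block, 30 members rose and 0 fell, and over all genes 2694 (21.2%) rose and 2977 (23.5%) fell. The numbers are not shown to pair the libraries: deviations of same-numbered libraries from their group means correlated by 0.0084, −0.40 and −0.36.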

Other observations

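Several members are known to carry small nucleolar RNAs in their introns, so that a gene for a ribosome factor also supplies guide RNAs. TAF1D, NCL, NOP56, NOP58, DKC1, GNL3 and WDR43 were taken as such hosts after the values had been seen. Of these 7 genes 4 rose (NOP56, NOP58, DKC1 and WDR43) and 0 fell, with a median log2 fold change of 0.51, beside 26.8% of all tested genes called higher and 27.7% lower. Of the other 49 members 32 rose, with a median of 0.52. The log2 fold changes of the 7 hosts ranged from 0.11 for NCL to 1.44 for NOP58. The counts are given per gene symbol, and whether reads from introns were included is not stated. The small nucleolar RNAs themselves were not analysed here.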
